A study of Homo sapiens with 6 samples.

Results

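CD44, ESRP1, ESRP2, RBFOX2 and MBNL1 are 1 cell-surface receptor and 4 RNA-binding proteins that regulate alternative exons, and they make up 5 of the 61015 annotated genes with a transcript in the data. Every transcript of these genes was taken, which gave 106 of 252618 transcripts, with 38 for CD44, 12 for ESRP1, 12 for ESRP2, 20 for RBFOX2 and 24 for MBNL1. The 5 genes were chosen from their measured levels in the same BCSC and non-BCSC libraries, so each difference between the groups given for them is a description and carries no p-value. Of the 106 transcripts, 69 had at least 1 count and 35 passed the filter on low counts.

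The samples were paclitaxel (PTX)-resistant MDA-MB-231 cells, a human triple-negative breast cancer line, sorted by flow cytometry on aldehyde dehydrogenase (ALDH) activity measured with the ALDEFLUOR substrate, with dead cells gated out. The BCSC group (breast cancer stem cells, ALDH+) held 3 libraries and the non-BCSC group (ALDH−) held 3. The study describes both groups as sorted from PTX-resistant cells. The sample titles name the resistance and the line for BCSC alone. All 6 libraries carry 1 and the same cell type label, so the groups rest on the sample titles, and nothing in the labels says whether the replicates were separate cultures or sorts. P-values therefore measure the spread between these libraries, which may be technical. Total counts ran from 15925943 to 21215352 in BCSC and from 9898588 to 12263667 in non-BCSC, and pairs of libraries within a group differed by more than counting error.

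CD44 is the main receptor for hyaluronan, a sugar polymer of the extracellular matrix, and is widely used as a marker of breast cancer stem cells. Its transcript has a block of variable exons (v2 to v10) that can be spliced in singly or in groups, giving CD44v forms, or left out together, giving the standard form CD44s, which lacks the extra stalk outside the membrane. ESRP1 and ESRP2 are splicing factors of epithelial cells that promote inclusion of these exons, and mesenchymal cells, which lack them, make mostly CD44s. RBFOX2 and MBNL1 are splicing factors with their own sets of target exons, and MBNL1 is best known for its loss of function in myotonic dystrophy.

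CD44 lies on chromosome 11 of GRCh37 (chr11:35160429-35253949, plus strand). The stretch of variable exons (chr11:35211613-35236398) spans 24786 bases between the fifth and sixth exons of the standard-form transcript CD44-201, and holds 9 variable exons whose lengths, from 90 to 204 nt, are all multiples of 3. Exon v10 (chr11:35232793-35232996) is shown first because its inclusion differed most between the groups, followed by v8 (chr11:35229652-35229753), v9 (chr11:35231512-35231601) and v3 (chr11:35219668-35219793). Capitals mark the exon and lower case the 20 intron bases on either side, on the plus strand from 5′ to 3′.
CD44 v10: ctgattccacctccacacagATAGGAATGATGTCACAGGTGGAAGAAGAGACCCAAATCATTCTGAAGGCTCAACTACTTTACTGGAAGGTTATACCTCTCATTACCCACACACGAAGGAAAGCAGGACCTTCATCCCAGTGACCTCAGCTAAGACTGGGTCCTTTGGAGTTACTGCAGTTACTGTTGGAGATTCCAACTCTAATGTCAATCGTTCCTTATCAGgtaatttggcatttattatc
CD44 v8: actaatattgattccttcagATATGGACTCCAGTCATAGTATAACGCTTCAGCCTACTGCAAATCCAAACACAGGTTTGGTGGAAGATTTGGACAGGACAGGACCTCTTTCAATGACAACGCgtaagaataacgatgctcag
CD44 v9: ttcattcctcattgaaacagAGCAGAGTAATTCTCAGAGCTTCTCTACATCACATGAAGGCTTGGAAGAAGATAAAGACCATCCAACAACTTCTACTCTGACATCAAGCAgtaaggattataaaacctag
CD44 v3: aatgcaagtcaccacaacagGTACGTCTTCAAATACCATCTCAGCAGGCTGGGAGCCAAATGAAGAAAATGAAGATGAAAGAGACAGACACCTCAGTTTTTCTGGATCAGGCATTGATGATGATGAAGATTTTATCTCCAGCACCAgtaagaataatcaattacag

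Joins from 3 CD44 transcripts are shown as 15 bases of the exon on the left in lower case and 15 of the exon on the right in capitals. The join shown for CD44-201 also occurs in CD44-207. CD44-201 joins base 35211612 to base 35236399 and skips the whole stretch, CD44-210 joins base 35211612 to v10 at base 35232793, and CD44-207 joins the second exon at base 35198287 to the exon at base 35208379, leaving out a 134-nt exon.
CD44-201 join: gaatccctgctaccaGAGACCAAGACACAT
CD44-210 join: gaatccctgctaccaATAGGAATGATGTCA
CD44-207 join: atttgagacctgcagCTCCACCTGAAGAAG

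Summed over its transcripts, CD44 stood at 2802, 2645 and 2485 CPM (read counts scaled to a common library total after TMM normalisation) in BCSC against 1640, 1478 and 1251 CPM in non-BCSC. All BCSC libraries lay above all non-BCSC libraries. The means were 2644 ± 158 and 1456 ± 195 CPM (SD, n = 3 each), a fitted log2 fold change of 0.86 with a standard error (SE) of 0.11. Divided by transcript length, the CD44 level was 907 ± 58.5 CPM per kb in BCSC and 733 ± 180 CPM per kb in non-BCSC (SD, n = 3 each). This difference was smaller than that of the CPM and smaller than the non-BCSC SD. The groups then overlapped, with non-BCSC replicate 1 above BCSC replicate 1. Across the 4 splicing factors the length-corrected level in BCSC was 97.9 ± 11.7 CPM per kb for MBNL1, 30.8 ± 2.04 for RBFOX2, 0.119 ± 0.103 for ESRP1 and 0.0899 ± 0.0976 for ESRP2. CD44, MBNL1 and RBFOX2 kept this order in non-BCSC, and the means of ESRP1 and ESRP2 differed by less than their SD in BCSC.

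RBFOX2 (chr22:36134783-36424872, minus strand) reached 183, 188 and 185 CPM in BCSC against 124, 96.1 and 91.5 CPM in non-BCSC. The 3 BCSC values were nearly equal and lay above all 3 non-BCSC values, with means of 185 ± 2.65 and 104 ± 17.5 CPM and a log2 fold change of 0.84 (SE 0.13). MBNL1 (chr3:151961617-152183569, plus strand) stood at 457, 554 and 552 CPM in BCSC against 403, 424 and 434 CPM in non-BCSC. The groups did not overlap for MBNL1 either, but the gap was narrow, with means of 521 ± 55.2 and 420 ± 15.9 CPM and a log2 fold change of 0.31 (SE 0.10). That value ran from 0.07 with protein-coding transcripts only, or with background removed, to 0.94 with a correction for GC content and length.

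ESRP1, on chromosome 8, had 0, 5 and 10 counts in the BCSC libraries and 17, 15 and 36 in the non-BCSC libraries. ESRP2 (chr16:68262936-68272005, minus strand) had 12, 4 and 0 counts in BCSC against 3, 3 and 0 in non-BCSC, and did not pass the filter. Both epithelial factors were thus near the floor of the assay, where 3 counts, the upper limit that a count of 0 allows, made 0.148 to 0.288 CPM. With no molecular identifiers in the reads, this limit takes in counting error alone. As a yardstick, 391 olfactory receptor genes, which a breast line has no known use for, were summed: they took 38.6, 55.0 and 147 CPM in BCSC against 526, 684 and 1120 CPM in non-BCSC. Per kb, ESRP1 stood at 1.07 times the olfactory level in BCSC and 1.11 times in non-BCSC, and ESRP2 at 0.959 and 0.0519 times. CD44 stood at 8872 and 744 times that level, MBNL1 at 950 and 75.7 times, and RBFOX2 at 300.0 and 20.2 times. The ESRP1 difference (log2 fold change −2.71, SE 1.29) followed the olfactory sum from group to group. With that background subtracted, CD44 stood at 0.62 and RBFOX2 at 0.63. That fit was also filtered and normalised anew, with 16514 genes tested and a median log2 fold change of 0.09, against −0.05 in the main fit. It therefore does not isolate the part of the background in these differences, which was not tested.

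**Figure D1:**
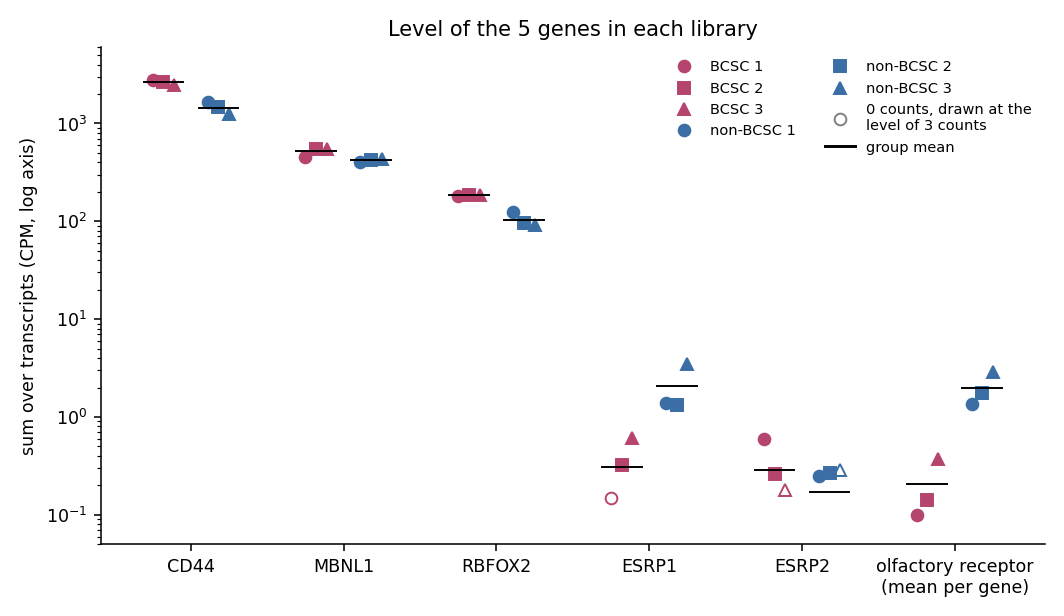
Level of each gene in each library as CPM on a log axis, with BCSC in red, non-BCSC in blue and group means as black bars. CD44, MBNL1 and RBFOX2 lie above 90 CPM in every library, while ESRP1 and ESRP2 lie at or below 3.45 CPM, in the range of the mean olfactory receptor gene, and open symbols mark libraries with 0 counts.

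The call for a changed gene was an adjusted p under 0.05 together with a fold above 2. Of 20442 genes tested, 4117 were called (20.1%), 1810 higher in BCSC (8.85%) and 2307 lower (11.3%), and in 10649 (52.1%) the groups did not overlap. By edgeR, 0 of the 4 members tested met the criterion and in 4 of 4 the groups did not overlap. DESeq2 also called 0, and 3 of the 4 had an unadjusted p under 0.05. Since the members were chosen on this contrast, nothing was read from these counts. Without non-BCSC replicate 1 the log2 fold change was 1.01 for CD44 and 1.04 for RBFOX2, which takes both past a fold of 2. In bulk libraries, fewer cells of a kind and less RNA per cell cannot be told apart.

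The CD44 counts lay mostly on 3 transcripts. CD44-201, the standard form (4288 nt, of which 3274 nt are the last exon), had 49802, 31386 and 27655 counts in BCSC against 3992, 8231 and 6964 in non-BCSC. It took 87.5%, 77.4% and 67.3% of the CD44 counts in BCSC against 20.1%, 49.2% and 53.4% in non-BCSC, and its level was 2058 ± 390 CPM against 575 ± 215 CPM (log2 fold change 1.93, SE 0.34). The BCSC libraries were all above the non-BCSC libraries in count, CPM and share. CD44-210, which carries v10 alone (1634 nt), had 2577, 2677 and 8173 counts in BCSC against 8568, 4672 and 3794 in non-BCSC. Its share of CD44 was 4.53%, 6.60% and 19.9% in BCSC against 43.1%, 27.9% and 29.1% in non-BCSC, so the shares did not overlap, whereas its CPM did, with means of 265 ± 200 and 495 ± 186 CPM. CD44-209, with v8 to v10 (2292 nt), had 1040, 3101 and 1412 counts against 4202, 1479 and 0, which overlap in every measure. The last exon was annotated at 538 nt in CD44-210 and 899 nt in CD44-209, so the far part of the 3274-nt last exon belongs to CD44-201 and to neither of these.

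**Figure D2:**
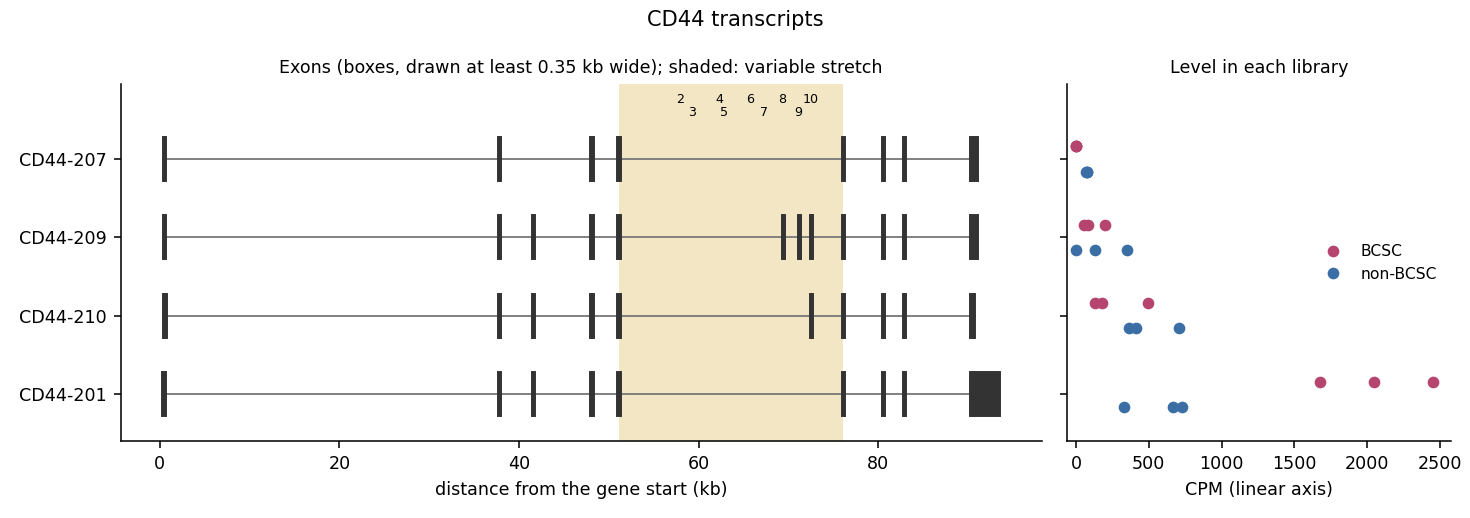
Exons of 4 CD44 transcripts as boxes against distance from the gene start in kb, with the variable stretch shaded and numbers 2 to 10 marking v2 to v10, beside the CPM of each transcript in each library. CD44-201 skips the stretch and is higher in all BCSC libraries (red) than in all non-BCSC libraries (blue), while CD44-209 and CD44-210 overlap.

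CD44-207, which lacks the 134-nt exon and is annotated as a target of nonsense-mediated decay (the breakdown of transcripts with an early stop), had 0 counts in all 3 BCSC libraries and 887, 849 and 740 in non-BCSC. With 3 counts per library as the floor, which allows for counting error alone, it was at least 418-fold lower in BCSC. CD44-202, a fragment with v8 and v9, went the other way, with 95, 59 and 498 counts in BCSC and 0 in each non-BCSC library. On the same floor it was at least 48.3-fold higher. Neither bound covers reads that were assigned to another transcript of the gene. Among 46176 transcripts tested, 362 (0.784%) were called, and among the 35 member transcripts tested edgeR called CD44-207 alone, where DESeq2 called 7. CD44-207 was chosen like CD44-202 after its values were seen. No test was read from it, and the call was lost without BCSC replicate 1, 2 or 3 and without non-BCSC replicate 2 or 3.

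Grouped by structure, the 22 CD44 transcripts with a cassette exon of the variable stretch summed to 248, 483 and 653 CPM in BCSC against 1150, 623 and 436 CPM in non-BCSC. These values overlap, and their means were 462 ± 203 and 736 ± 370 CPM. The 7 transcripts that join the exons on both sides of the stretch summed to 2480, 2076 and 1705 CPM in BCSC against 446, 820 and 756 CPM in non-BCSC, with no overlap and a ratio of means of 3.1. In counts, the difference in total CD44 lay on the skipping forms, while the summed level of the variable forms did not separate the groups. These sums were not corrected for transcript length. Reads from the long last exon of the standard form do not cover the stretch. The step that divided reads among transcripts is not given in the sources used here. Whether the difference in molecules also lay on the skipping forms was therefore not tested. The 9 other transcripts held 95.6 ± 27.6 and 46.4 ± 12.3 CPM.

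The share of CD44 counts on transcripts that overlap the variable stretch was 11.3%, 21.3% and 31.1% in BCSC against 72.7%, 44.3% and 39.2% in non-BCSC. Every non-BCSC library lay above every BCSC library, although non-BCSC replicate 1 stood well above the other two. The means were 21.2% ± 9.90 and 52.1% ± 18.1 (SD, n = 3 each), a difference of −30.8 percentage points. Without non-BCSC replicate 1 the difference was −20.5 points, still with no overlap. With counts divided by transcript length the shares were 43.7% ± 13.3 and 71.3% ± 10.6, a difference of −27.6 points. With protein-coding transcripts only the difference was −34.7 points.

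Exon by exon, inclusion was taken as the counts on transcripts that hold the exon, out of those that hold it or skip it. Transcript length, 4288 nt for CD44-201 and 1634 nt for CD44-210, was not corrected for. These percentages are therefore shares of counts and not of molecules. For v10 it was 7.58%, 17.3% and 26.1% in BCSC against 67.6%, 38.7% and 33.6% in non-BCSC, means of 17.0% ± 9.25 and 46.7% ± 18.3 with no overlap. Inclusion of v8 and v9, which were carried by the same transcripts, was 3.31%, 10.7% and 6.31% in BCSC against 23.1%, 9.84% and 2.51% in non-BCSC, which overlap. Exon v3, whose protein stretch carries heparan sulfate chains that bind growth factors, was included at 2.45% ± 1.13 in BCSC and 5.22% ± 0.459 in non-BCSC, low in both groups but without overlap. Exon v6, known as a co-receptor region for MET, was included at 1.85% ± 0.836 and 1.64% ± 0.756. Exons v2, v4, v5 and v7 had means of at most 1.78% in either group, and each overlapped. Most of the variable-exon signal in these libraries was thus v10, alone or behind v8 and v9.

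**Figure D3:**
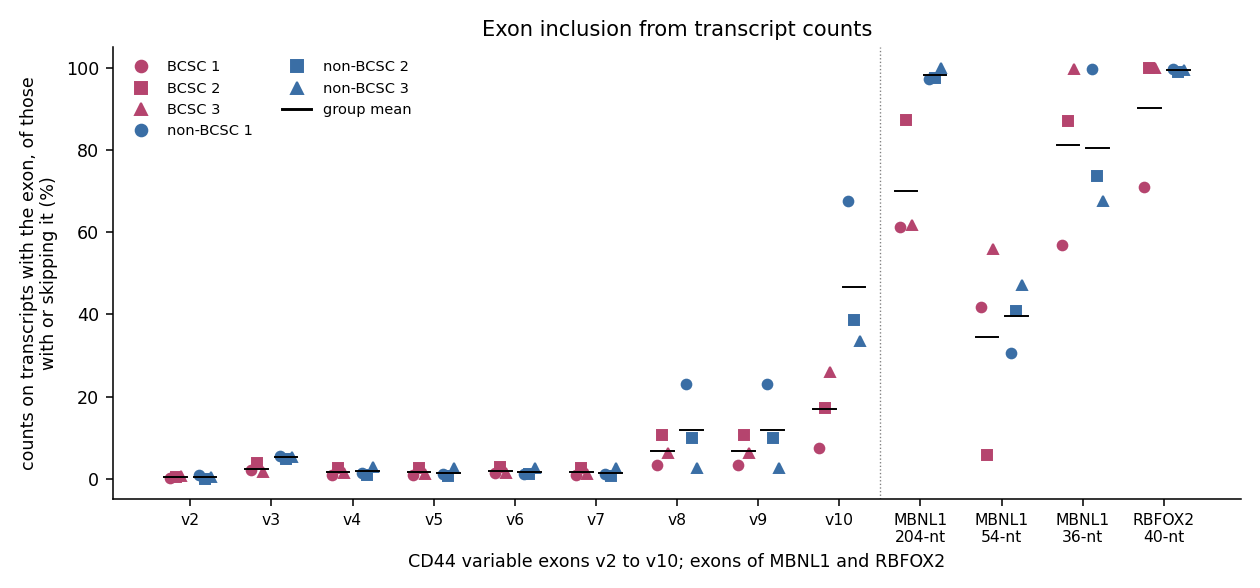
Inclusion in percent of counts, not corrected for transcript length, of v2 to v10 of CD44, left of the dotted line, and of 4 exons of MBNL1 and RBFOX2. Each library has 1 symbol, and black bars are group means. The non-BCSC libraries (blue) lie above all BCSC libraries (red) for v3, for v10, at 33.6% to 67.6%, and for the 204-nt exon of MBNL1.

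Letters known to be favoured by these factors were searched in the 200 intron bases on each side of every variable exon. TGGTGG, a GU-rich word of the kind ESRP proteins bind, was found on the sense strand downstream of v8 and v9, 2 of 9 variable exons, against 9.79% of 189562 internal exons of protein-coding genes. It also occurred upstream of v10, against 8.25% of internal exons, and on the antisense strand in no window of either side (6.56% upstream and 6.28% downstream of internal exons). The matches downstream of v8 (chr11:35229822-35229860) and v9 (chr11:35231662-35231759) are shown in capitals within the plus-strand intron, where overlapping copies run together.
Intron after v8: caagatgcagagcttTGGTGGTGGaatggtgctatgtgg
Intron after v9: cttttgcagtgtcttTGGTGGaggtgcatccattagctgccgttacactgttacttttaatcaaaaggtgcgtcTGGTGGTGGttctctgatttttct

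TGCATG, the word RBFOX proteins bind, was found on the sense strand upstream of v7 (5.79% of internal exons) and downstream of none of the 9 (6.12%), and on the antisense strand upstream of v4 and v5 (4.52%) and downstream of none (4.70%). TGCTGC, a word of the kind MBNL proteins bind, was found on the sense strand downstream of v4 and v6 (7.64%) and upstream of none (7.69%), and on the antisense strand upstream of v10 (5.65%) and downstream of none (6.21%). TGCTGC ends in the TGC with which TGCATG begins, so their matches can share bases, but none did around these exons. A match is a run of letters only and was not tied to any count.

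MBNL1 and RBFOX2 are themselves alternatively spliced. Of their cassette exons, 3 are shown next because their inclusion is compared in what follows, the 204-nt (chr3:152150506-152150709) and 36-nt (chr3:152173331-152173366) exons of MBNL1 and the 40-nt exon of RBFOX2 (chr22:36152152-36152191, read on the minus strand), with the exon in capitals and 20 intron bases on each side. The 36-nt exon of MBNL1 has tgcatg in the lower-case bases before it. Further out, within 200 intron bases, TGCATG also lay on the sense strand before the 204-nt and 54-nt exons of MBNL1. It lay before the 40-nt exon of RBFOX2 as well, against 5.79% of internal exons.
MBNL1 204-nt exon: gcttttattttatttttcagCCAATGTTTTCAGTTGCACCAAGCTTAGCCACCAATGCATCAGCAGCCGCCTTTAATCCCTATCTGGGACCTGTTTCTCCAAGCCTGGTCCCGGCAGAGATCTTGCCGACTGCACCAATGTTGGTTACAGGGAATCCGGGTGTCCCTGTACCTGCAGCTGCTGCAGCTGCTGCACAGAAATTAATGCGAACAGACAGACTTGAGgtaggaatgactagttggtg
MBNL1 36-nt exon: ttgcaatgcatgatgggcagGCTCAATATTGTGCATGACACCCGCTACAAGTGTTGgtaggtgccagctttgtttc
RBFOX2 40-nt exon: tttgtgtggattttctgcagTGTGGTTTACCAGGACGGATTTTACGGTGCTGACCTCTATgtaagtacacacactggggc

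The 204-nt exon of MBNL1 was included at 61.2%, 87.2% and 61.7% in BCSC against 97.4%, 97.5% and 100% in non-BCSC, with no overlap and means of 70.1% ± 14.9 and 98.3% ± 1.47. The transcript behind this was MBNL1-224, which lacks the exon and had 3246, 1006 and 2926 counts in BCSC against 114, 102 and 0 in non-BCSC. MBNL1-222, annotated as a retained intron, was also higher in each BCSC library, at 604, 286 and 1307 counts against 121, 89 and 113. The 54-nt exon, which is known to steer MBNL1 to the nucleus, was included at 34.5% ± 25.9 and 39.5% ± 8.28, and the 36-nt exon at 81.2% ± 22.0 and 80.4% ± 17.1, and both overlapped. The full-length protein-coding forms changed places between libraries of 1 group: MBNL1-202 had 1270, 151 and 4243 counts in BCSC and MBNL1-204 had 340, 4006 and 412. In non-BCSC the same transcripts were steadier, at 1398, 1498 and 1335 and at 3099, 1817 and 1614 counts. MBNL1-201 had 2053, 252 and 0 counts in BCSC against 0, 396 and 612 in non-BCSC, MBNL1-205 had 1325, 725 and 0 against 0, 811 and 690, and MBNL1-206 had 1851 counts in BCSC replicate 2 alone.

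The counts of RBFOX2 moved from transcript to transcript between libraries. RBFOX2-220 had 2308, 2560 and 2658 counts in BCSC against 1274, 0 and 0 in non-BCSC. In the non-BCSC libraries where it was at 0, the counts lay instead on RBFOX2-209 (919 counts in replicate 2 and 4 in replicate 3) and on RBFOX2-215 (774 counts in replicate 3). RBFOX2-209 and RBFOX2-220 are 7224 and 7212 nt long and differ only at the end of a single exon, while RBFOX2-215 is 6909 nt long. RBFOX2-220 thus went from 84.9% of the RBFOX2 counts to 0% between libraries of 1 group. RBFOX2-205 held 1063 counts in BCSC replicate 1 and none elsewhere, which brought inclusion of the 40-nt exon to 71.1% there against 99.9% in both other BCSC libraries and 99.1% to 99.8% in non-BCSC. RBFOX2-219, a nonsense-mediated decay form, had 259, 149 and 302 counts in BCSC against 154, 0 and 76 in non-BCSC, and RBFOX2-211, a retained intron, had 10, 62 and 18 against 8, 117 and 55. The gene sum varied less than its named transcripts, with a coefficient of variation of 1.43% against 19.7% to 173% in BCSC and of 16.9% against 89.1% to 173% in non-BCSC.

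**Figure D4:**
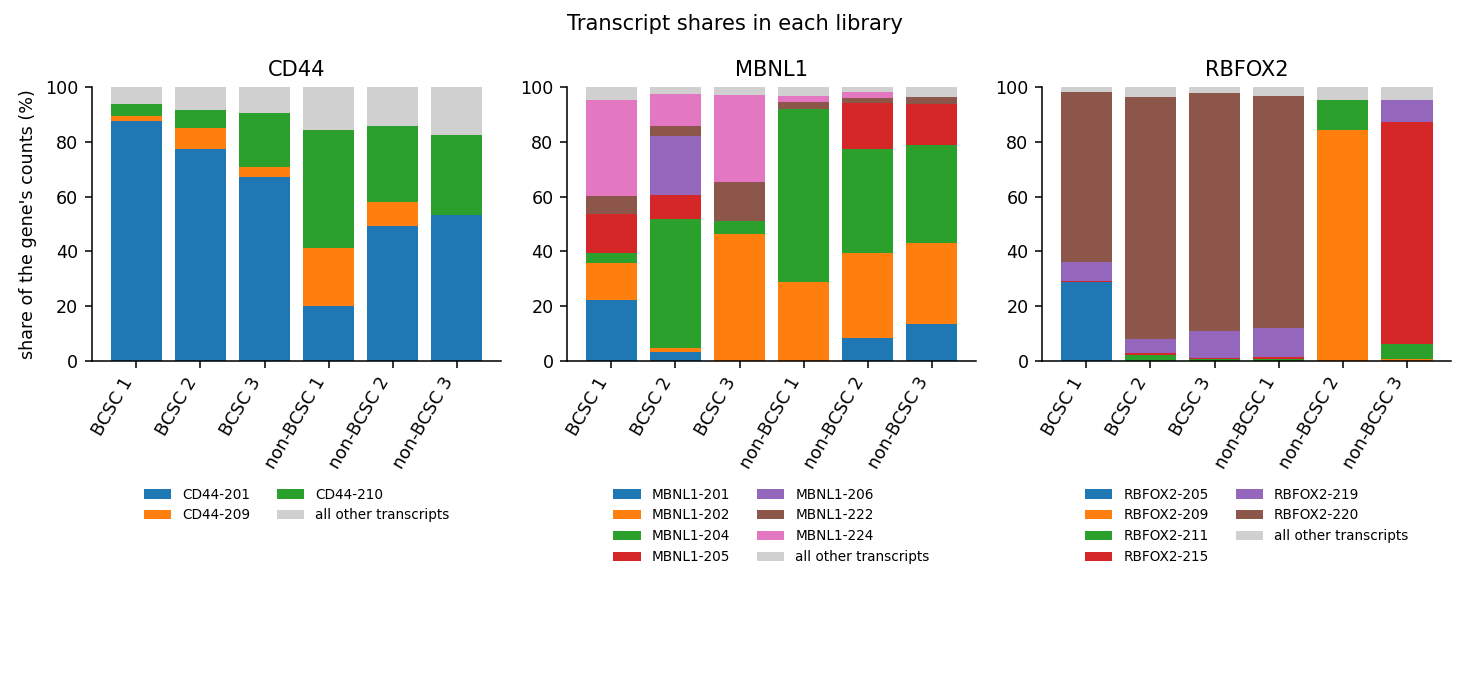
Share of the counts of CD44, MBNL1 and RBFOX2 on each named transcript in each library, as stacked bars from 0 to 100%, with all remaining transcripts in grey. CD44-201 fills 67.3% to 87.5% of the BCSC bars and 20.1% to 53.4% of the non-BCSC bars, whereas the leading RBFOX2 transcript is a different one in each non-BCSC library.

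Such jumps were not limited to these genes. Of all transcripts with at least 200 counts in 1 BCSC library, 18.9% had 0 counts in another BCSC library, and in non-BCSC this was 25.4%. Among the member transcripts it was 7 of 22 (31.8%) and 7 of 16 (43.8%), with 2 of 11 and 2 of 9 for CD44, 4 of 8 and 2 of 4 for MBNL1, and 1 of 3 and 3 of 3 for RBFOX2. The step that divided reads among transcripts is not given in the sources used here, so its part in the isoform shares was not tested. ESRP1 and ESRP2 counts were too few for any share: ESRP1-203, ESRP1-209 and ESRP1-211 reached at most 16 counts and ESRP2-202 and ESRP2-203 at most 11.

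Genes on the other strand overlap the members, and whether counting used strand is not stated. CD44-DT had 26 to 83 counts and CD44-AS1 0 to 15, against 13049 or more for CD44, and MBNL1-AS1 had 25 to 106. NFATC3, which overlaps ESRP2, had 853 to 3189 counts, so the few ESRP2 counts and stray antisense reads cannot be told apart.

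Among the 5660 genes averaging 500 or more counts, the profile most like that of CD44 over the 6 libraries, by root mean square difference of centred log2 CPM, belonged to KMT2A, a histone methyltransferase, at 0.045. CHTOP, an RNA export factor, and AHNAK, a very large scaffold protein, followed at 0.051 each. RBFOX2 ranked 28, at 0.087, and MBNL1 ranked 1997, at 0.344. This describes 6 points in 2 groups.

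To see what else of the CD44 system differed, 21 genes that make, bind or cut its ligands, tether it to the cytoskeleton or cleave or partner it were examined, and 18 of them could be tested. By edgeR's quasi-likelihood test with Benjamini-Hochberg adjustment, 5 were higher in BCSC, 2 were lower and 11 were not called, where 8.85% of all genes tested were higher and 11.3% lower. The median log2 fold change of the list was −0.05, equal to that of all genes tested. Of the enzymes that make hyaluronan, HAS3 was higher, with 66.4, 50.5 and 49.2 CPM in BCSC against 23.5, 27.9 and 16.1 CPM in non-BCSC (log2 fold change 1.30, SE 0.23, adjusted p = 0.00448). HAS2 was at 10.4 ± 1.22 and 17.1 ± 3.38 CPM (adjusted p = 0.0717), and HAS1 was not tested. Of those that degrade it, HYAL2 was higher (log2 fold change 1.99, SE 0.45, adjusted p = 0.0114). HYAL3, named after its values were seen because it lay under the count minimum for naming, had 99, 61 and 69 counts against 0, 0 and 5 (adjusted p = 0.0202). CEMIP, a hyaluronan-degrading protein of another family, was lower (log2 fold change −1.45, SE 0.44, adjusted p = 0.0345). It stood at 4.63 times the olfactory level per kb in BCSC and 1.61 times in non-BCSC. With background removed it was at −0.92 (adjusted p = 0.373 by edgeR), and its call was also lost with no filter or with protein-coding transcripts only. CEMIP2, a relative of CEMIP, had a log2 fold change of −0.95 (SE 0.11, adjusted p = 0.000592), short of a fold of 2 here but past it, at −1.04, with RLE size factors or DESeq2.

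SPP1, which encodes osteopontin, a secreted ligand of CD44, was lower, at 361, 340 and 301 CPM in BCSC against 886, 913 and 711 CPM in non-BCSC (log2 fold change −1.33, SE 0.12, adjusted p = 0.00023). NF2 (merlin), a partner of CD44, averaged 388 ± 55.2 CPM against 187 ± 5.47 CPM and was called higher (log2 fold change 1.05, SE 0.12, adjusted p = 0.000615). MSN (moesin), which like EZR and RDX links CD44 to actin, had a log2 fold change of 0.71 (SE 0.16, adjusted p = 0.0127), under a fold of 2. EZR and RDX had log2 fold changes of −0.15 and −0.29. Of the proteases that cut CD44, MMP14 was higher (log2 fold change 1.76, SE 0.52, adjusted p = 0.0315), and ADAM10 and ADAM17 were not called. MET, whose signalling uses CD44v6, was at 608 ± 35.9 against 328 ± 29.5 CPM (log2 fold change 0.89, SE 0.10, adjusted p = 0.000657), also under a fold of 2, and SLC7A11, the cystine transporter that CD44v stabilises, had a log2 fold change of −0.02 (adjusted p = 0.924). With GC content and length corrected, HAS3, HYAL2, SPP1, NF2 and MMP14 were no longer called, SLC7A11 was at 0.80 (adjusted p = 0.021 by edgeR), and the median of all genes moved from −0.05 to 0.10. Without BCSC replicate 1 only 1 gene of the list was called higher, HAS3, and with 1 library left out in turn CEMIP was called only without BCSC replicate 3. The NF2 call held under 7 of 14 alternatives and was lost at 0.96 with RLE size factors or DESeq2. The MMP14 call held under 8 of 14, being lost also with background removed and without BCSC replicate 1 or 2 or non-BCSC replicate 2 or 3, and HYAL3 was lost without BCSC replicate 1 or 2 or non-BCSC replicate 2.

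Among 28 other splicing regulators, 27 could be tested, of which 3 were higher, 2 were lower and 22 were not called, with a median log2 fold change of 0.12. Over all genes tested, 8.85% were called higher and 11.3% lower, so the list held no excess of calls. PTBP1, a repressor of many alternative exons, was higher, with 299, 228 and 198 CPM in BCSC against 126, 85.0 and 85.4 CPM in non-BCSC (log2 fold change 1.29, SE 0.19, adjusted p = 0.00216 by edgeR), but not with GC content and length corrected (0.35) or with protein-coding transcripts only. KHDRBS3, a relative of the CD44 splicing factor SAM68, was higher (log2 fold change 1.19, SE 0.16, adjusted p = 0.00114), and SAM68 itself, KHDRBS1, was at −0.05 (adjusted p = 0.71). PTBP3 was the third (log2 fold change 1.15, SE 0.36, adjusted p = 0.0488), and that call held under 2 of 14 alternatives. YBX1, an RNA-binding protein reported to act on CD44 exons, was lower, at 380, 419 and 367 CPM against 1134, 1045 and 822 CPM (log2 fold change −1.36, SE 0.13, adjusted p = 0.000248), under all 14 alternatives. RBFOX1, the neuronal relative of RBFOX2, had 3, 9 and 19 counts in BCSC against 50, 56 and 78 in non-BCSC (log2 fold change −3.13, SE 0.82, adjusted p = 0.02), at 1.91 and 2.20 times the olfactory level per kb. With background removed its log2 fold change was −3.20 with a larger SE of 1.36 and it was not called, nor was it without BCSC replicate 1 or 2 or non-BCSC replicate 2 or 3. MBNL2 had a log2 fold change of 0.67 (SE 0.13, adjusted p = 0.00521), under a fold of 2. HNRNPM, which promotes skipping of CD44 variable exons, was at 226 ± 17.5 and 143 ± 53.0 CPM (log2 fold change 0.66, SE 0.24, adjusted p = 0.0604).

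**Figure D5:**
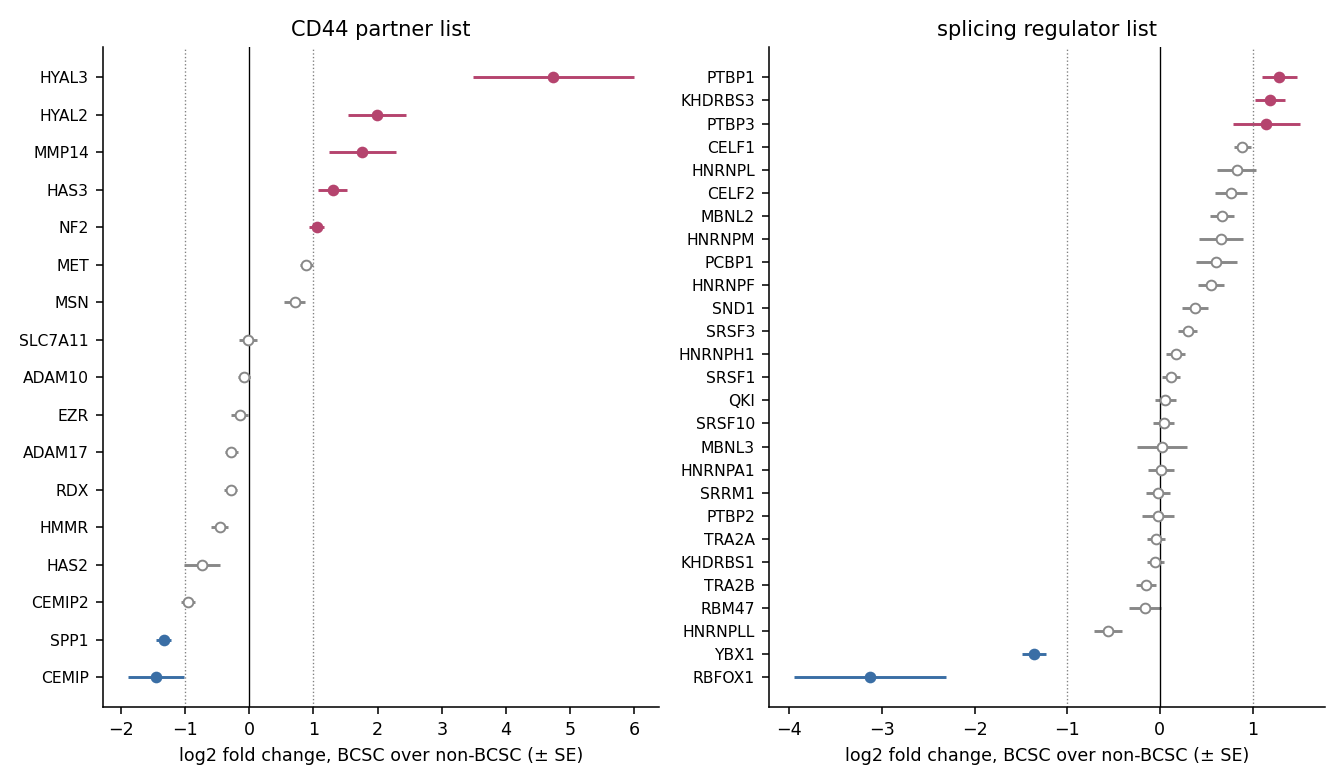
Log2 fold change of BCSC over non-BCSC with its SE for tested genes of the CD44 partner list (left) and the splicing regulator list (right), with filled symbols for genes called and dotted lines at a fold of 2. Most genes lie between the dotted lines, and the genes called range from −1.45 (CEMIP) to 4.74 (HYAL3, a value that depends on the prior count since non-BCSC was near 0) on the left and from −3.13 (RBFOX1) to 1.29 (PTBP1) on the right.

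Transcript usage was then tested in 22 genes known for exons that switch between epithelial and mesenchymal cells, many of them ESRP, RBFOX2 or MBNL1 targets. Of the 20 that could be tested, 5 (25.0%) differed in usage (edgeR diffSpliceDGE with gene-level Simes p, adjusted over 8750 genes), where 9.98% of all genes tested did. CLSTN1, a calcium-binding membrane protein, had an adjusted p of 5.58e-05. Its transcript CLSTN1-201 had 1519, 1048 and 1120 counts in BCSC and 0 in each non-BCSC library, and CLSTN1-206, with a further 124-nt exon and annotated for nonsense-mediated decay, had 1, 0 and 0 against 168, 220 and 98. EPB41L5, which acts in cell polarity and epithelial-mesenchymal transition (adjusted p = 0.000541), had EPB41L5-202 at 181, 103 and 154 counts against 0 in each non-BCSC library. PLEKHA1, a phosphoinositide-binding adaptor (adjusted p = 0.000466), had PLEKHA1-204 at 94, 59 and 87 counts against 266, 164 and 499.

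RALGPS2, an exchange factor for Ral GTPases (adjusted p = 0.00195), had RALGPS2-203 at 471, 743 and 740 counts against 0 in each non-BCSC library. In EPB41L5, PLEKHA1 and RALGPS2 the leading pair of transcripts had different first exons, and in CLSTN1 a cassette exon was present in 1 of the pair alone. The classic switch genes FGFR2, CTNND1, ENAH and NUMB were not called (adjusted p = 1, 0.162, 1 and 0.719 by edgeR). Without non-BCSC replicate 2 EPB41L5 was not called, and PLEKHA1 was lost without any 1 of 5 libraries (all but BCSC replicate 2). RALGPS2 was lost with the replicate number as a block, and CLSTN1 with 10 counts in every library.

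As gene sums, 3 of these 22 genes were higher in BCSC and 1 was lower, where 20.1% of all genes tested were called in either direction. The median log2 fold change of the list was 0.33. ITGA6, the laminin-binding integrin α6, was lower, at 292, 335 and 329 CPM against 805, 838 and 707 CPM (log2 fold change −1.30, SE 0.10, adjusted p = 0.000111 by edgeR). ARHGEF11, a guanine nucleotide exchange factor, was higher (log2 fold change 1.46, SE 0.18, adjusted p = 0.00089). With GC content and length corrected, ITGA6 was at −0.92 and ARHGEF11 at 0.66, both short of a fold of 2 and no longer called. FLNA (1.29, SE 0.32, adjusted p = 0.02) and SCRIB (1.53, SE 0.49, adjusted p = 0.0419) were also higher, and with GC content and length corrected their log2 values were −0.17 and −0.38. The FLNA call held under 7 of 14 alternatives, being lost without BCSC replicate 1 or non-BCSC replicate 2 or 3, and the SCRIB call under 5 of 14, holding with 1 library left out only without BCSC replicate 3.

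The epithelial or mesenchymal state of the cells was checked with marker lists. Of 17 epithelial genes, 12 did not pass the filter, among them EPCAM, CLDN7, GRHL2 and RAB25, and CLDN3 and CRB3 had 0 counts in every library. CDH1 (E-cadherin) had 43 to 97 counts per library, with 3.76 ± 1.25 and 7.41 ± 1.70 CPM (adjusted p = 0.129). KRT8 and KRT18, keratins of simple epithelia whose genes overlap on opposite strands, were lower in BCSC (log2 fold changes −3.15, SE 0.26, and −2.56, SE 0.47, adjusted p = 0.000129 and 0.00489), and the summed level of the list was 21.3 to 30.2 CPM in BCSC and 81.7 to 97.1 CPM in non-BCSC. VIM (vimentin) stood at 3418 ± 412 and 2793 ± 506 CPM and ZEB1, a repressor of epithelial genes including ESRP1, at 80.7 ± 1.52 and 84.4 ± 10.7 CPM. Of 9 mesenchymal genes tested, edgeR called 0, DESeq2 called 0, and 4 had an unadjusted p under 0.05. Divided by transcript length, the BCSC level was 1691 ± 221 CPM per kb for VIM and 18.9 ± 2.52 CPM per kb for ZEB1, against 0.931 ± 0.345 CPM per kb for CDH1 and 0.0711 ± 0.123 CPM per kb for EPCAM (SD, n = 3 each). VIM and ZEB1 stood above CDH1 and EPCAM in non-BCSC as well. There VIM was at 1404 ± 259, ZEB1 at 17.4 ± 3.69, CDH1 at 2.02 ± 1.18 and EPCAM at 0.783 ± 0.681 CPM per kb. This order did not hold for every gene of the lists. In non-BCSC the epithelial gene KRT8 averaged 37.8 CPM per kb, above ZEB1, and the mesenchymal gene SNAI2 averaged 2.79. In BCSC the epithelial gene CLDN4 averaged 5.49 CPM per kb and SNAI2 3.75.

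Of 9 genes of blood and vessel cells, 8 had a transcript in the data, 4 were tested and 3 were lower in BCSC. PTPRC, the pan-leukocyte gene, had 4, 6 and 19 counts against 160, 256 and 216 (log2 fold change −5.02, SE 0.61, adjusted p = 0.00085), HBB (β-globin) had 0 in each BCSC library against 9, 12 and 33 (adjusted p = 0.0154, a call lost without BCSC replicate 1 or 2 or non-BCSC replicate 3), and CDH5 (VE-cadherin) was at 24.7 ± 8.08 against 66.5 ± 21.6 CPM (adjusted p = 0.00749). The list summed to 19.3 to 34.7 CPM in BCSC and 73.2 to 103 CPM in non-BCSC, most of it CDH5 in each library. Per kb, CDH5 stood at 79.2 times the olfactory level in BCSC and 18.7 times in non-BCSC. PTPRC stood at 3.16 and 7.61 times that level. The list sum went in the same direction as the olfactory sum, the epithelial list, ESRP1 and the CD44 variable-exon share. The part of this difference in those results was not tested.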

How the data were processed

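RNA was sequenced from 6 libraries of MDA-MB-231 cells, 3 BCSC and 3 non-BCSC, with random priming and dUTP strand marking per the labels. The study describes the cells of both groups as PTX-resistant. The authors deposited estimated counts for each transcript, in whole numbers, neither normalised nor filtered. The study's methods give alignment with HISAT2 to hg19, whereas the submitters' processing notes list hg38 with HISAT2, featureCounts and DESeq2, and the step that gave transcript counts is not given in the sources used here. Identifiers were matched to GENCODE on GRCh37: 249787 of 252618 transcripts (98.9%) matched, 2827 did not, and 4 with assembler-made identifiers were left out. All coordinates and sequences are GRCh37, and sequence was read from that genome.

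Counts were summed per gene and fitted in edgeR 4.0.16 (R 4.3.3) with TMM, filterByExpr and robust quasi-likelihood dispersions (model: group alone), across all genes or transcripts, with Benjamini-Hochberg adjustment over all features tested. Transcript usage was tested with diffSpliceDGE. Transcripts were named where they held at least 5% of a gene's pooled counts in either group, and list genes where called, averaging 50 counts or more, with no overlap between groups, beside the reference genes RBFOX1, MBNL2, PTBP1, ZEB1, CDH1 and VIM. Other list genes are given for their role, and some list genes are counted but not reported here by name. The members, lists and tests were chosen with earlier results of these data known. The alternatives tried were DESeq2 1.42.0, RLE size factors, either no filter or 10 counts in each library, the replicate number as a block, leaving out each library, a loess correction for GC content and length (span 0.3), removal of a background per kb taken from olfactory receptor genes, protein-coding transcripts only, no fold minimum and limma 3.58.1 (voom and diffSplice) for usage. Cassette exons with exact ends for the CD44 share, and the alternatives for gene sums of the switch genes and for protein-coding transcripts of the list genes, were added after seeing the data. The tests were tried on simulated data. Common biological coefficients of variation were 0.453 for genes and 1.02 for transcripts, so single transcripts are far less precise than gene sums.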

Additional observations from a re-analysis of the deposited data

How the results depend on the processing

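Of 676 values recomputed under the alternatives, 523 kept their direction and side of the threshold or stayed within the spread, 82 named calls were lost, 8 gained and 16 changed sign. With the GC and length correction SCRIB turned to −0.38 and FLNA to −0.17. The other sign changes were of genes not called: with that correction SLC7A11 was at 0.80, KHDRBS1 at 0.15, ZEB1 at 0.47 and HAS2 at 0.0, with no filter SLC7A11 was at 0.05, KHDRBS1 at 0.03 and ZEB1 at 0.01, and with protein-coding transcripts only VIM was at −0.03. With 1 library left out SLC7A11 ran from −0.10 to 0.14, KHDRBS1 from −0.06 to 0.01 and ZEB1 from −0.12 to 0.08. The other 47 moved, as follows. RLE size factors and DESeq2 on gene sums moved no list count or member value past its limit. With the GC and length correction the log2 fold change was 1.20 for CD44 and 0.94 for MBNL1, the CD44 partner list had 2 called higher and 1 lower, 2 mesenchymal genes were called and 0 member transcripts. With background removed it was 0.62 for CD44, 0.63 for RBFOX2 and 0.07 for MBNL1, with 3 partners higher, and 1 splicing regulator higher and 1 lower. With 10 counts in every library it was 0.16 for MBNL1, with 3 partners higher, 1 regulator lower, 1 blood and vessel gene and 1 switch gene by usage. MBNL1 stood at 0.07 with protein-coding transcripts only. With no filter, 1 partner was lower and 2 member transcripts were called, and DESeq2 called 7 member transcripts. With no fold minimum, 5 partners were lower and 9 regulators higher. The cause of these changes was not tested.

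With a single library left out, log2 fold changes ran from 0.77 to 1.04 for RBFOX2 and from 0.78 to 1.01 for CD44. Calls ran from 1 to 5 for partners higher and 1 to 2 for partners lower, 1 to 2 for regulators lower, 0 to 1 for mesenchymal genes and for member transcripts, and 3 to 5 for usage.

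Same-numbered libraries had correlations of deviations from the group means of 0.179, 0.0143 and 0.219. Libraries of unlike number were not compared, so these values cannot settle whether the replicate numbers pair the libraries. With the number as a replicate block, 0 member transcripts and 3 switch genes by usage were called.

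Depth limited ESRP1 and ESRP2, and the spread between replicates limited single transcripts. How reads were divided among transcripts that share exons was not varied.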
